A study of Mus musculus with 25 samples.

Results

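The dendritic cell genes examined were Xcr1, Clec9a, Batf3, Irf8, Cd209a, Flt3, Zbtb46, Fscn1, Siglech and Ccl22, chosen by symbol as genes that mark or build the dendritic cell subsets. Each of the 10 symbols had 1 row among the 55450 genes of the count table, and all 10 passed the filter on low counts. Bulk RNA was sequenced from 25 tumours of the mouse melanoma line B2905, also called M4, grown in C57BL/6 mice, with 1 library per tumour. Of 40 implanted mice, 30 received an antibody against CTLA-4 and 5 an isotype IgG2b antibody, at 10 mg/kg, from an average tumour size of 75 mm3. Of the anti-CTLA-4 tumours, 20 were sequenced and carry an outcome given 10 to 11 days after the last dose from the course of tumour size: 8 responders (shrinking), 6 stable tumours and 6 non-responders (growing). The 5 IgG2b tumours are the controls, and all 4 groups carry the same implanted line.

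Dendritic cells take up antigen and present it to T cells. The conventional type 1 subset (cDC1) depends on the transcription factors IRF8 and BATF3, carries the chemokine receptor XCR1 and the dead-cell receptor CLEC9A, and presents tumour antigen to CD8 T cells. The type 2 subset (cDC2) is the main subset for CD4 T cells, plasmacytoid cells make type I interferon, and any conventional subset can mature and migrate, when it makes FSCN1 and CCL22. In a piece of tumour, fewer cells of a type and less RNA per cell cannot be told apart.

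Libraries held from 8.77 to 34.3 M counts. Protein-coding genes took between 82.9% and 89.2% of counts in the controls, non-responders and stable tumours. The share was 23.8% to 87.0% in responders, with a median of 68.8%, and only responder 5 lay among the other groups. Every comparison with responders carries this difference, and a covariate for the share can hardly be told apart from being a responder. A call lost with that covariate therefore does not show that the share accounts for the difference between groups. With the share as a covariate in edgeR, 0 members passed between responders and either other anti-CTLA-4 group. Of 18031 genes tested, that fit called 1810 between responders and non-responders and 0 between responders and stable tumours. Against controls it called 7 members higher in responders. Without the covariate 36.1% of all genes were higher there. The share of all genes from the covariate fit is not given here, so the 7 have no like background. The calls depended on the form of the covariate. With log2 of the share, a form chosen after the data were seen, Clec9a stayed called higher in responders than in non-responders. That form called 4627 of all genes between these 2 groups. The numbers that open the library names also run by group. The labels do not say what these numbers stand for. If they follow an order of processing, that order and group cannot be told apart. As a check of the tissue, summed levels of 7 melanocyte markers were 10500 to 17110 counts per M (CPM) in controls, 723 to 13870 CPM in non-responders (median 2375), 227 to 504 CPM in stable tumours and 303 to 722 CPM in responders, and no marker was at 0 throughout a group. Summed levels of 4 pan-leukocyte markers were 137 to 286 CPM for controls, 221 to 1024 CPM for non-responders, 959 to 1394 CPM for stable tumours and 682 to 1217 CPM for responders.

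Sequence around 3 transcription starts is shown because it bears on how these genes were counted or on what their starts hold. The sequences are from RefSeq on GRCm38.p6 and run from 250 bases before the start to 30 after it. In Clec9a the capitals mark the exon bases that the GENCODE annotation also gives to a transcript of the neighbouring gene Clec1b. In Cd209a they mark a match to an ETS-IRF composite element, the kind of site that PU.1 and IRF8 bind together. In Zbtb46 they mark a match to an AP-1 type site, the kind that BATF proteins bind with JUN partners, and this RefSeq start lies inside the gene as GENCODE gives it, not at its 5′ end.
Clec9a, chr6:129408612-129408891, plus strand: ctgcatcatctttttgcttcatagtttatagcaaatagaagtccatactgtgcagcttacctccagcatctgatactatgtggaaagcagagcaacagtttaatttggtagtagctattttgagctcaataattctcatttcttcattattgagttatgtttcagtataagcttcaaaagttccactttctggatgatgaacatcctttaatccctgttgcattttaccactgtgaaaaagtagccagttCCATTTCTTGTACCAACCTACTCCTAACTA
Cd209a, chr8:3748955-3749234, minus strand: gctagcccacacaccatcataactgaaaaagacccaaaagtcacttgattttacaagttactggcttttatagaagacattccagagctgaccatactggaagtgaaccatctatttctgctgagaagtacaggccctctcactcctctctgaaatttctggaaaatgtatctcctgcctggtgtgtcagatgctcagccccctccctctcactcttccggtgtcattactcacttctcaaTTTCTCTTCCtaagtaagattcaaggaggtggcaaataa
Zbtb46, chr2:181424359-181424638, minus strand: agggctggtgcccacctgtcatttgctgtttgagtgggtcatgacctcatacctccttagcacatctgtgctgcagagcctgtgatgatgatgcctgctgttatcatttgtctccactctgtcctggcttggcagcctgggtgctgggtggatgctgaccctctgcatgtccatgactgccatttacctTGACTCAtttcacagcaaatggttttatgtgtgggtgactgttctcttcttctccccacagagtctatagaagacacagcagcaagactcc
Starts of 300 bases were searched on both strands for 4 motifs in all 11 RefSeq starts of the 10 members, Irf8 having 2. The ETS-IRF element, GGAA and GAAA with 2 bases between, was found only in Cd209a and is in 2.72% of all 32851 RefSeq starts. The AP-1 type site, TGANTCA, was found only in Zbtb46 and is in 7.81% of all starts. The interferon-stimulated response element core, GAAA and GAAA with 2 bases between (3.44% of starts), and an NF-kB type site, GGG, 2 bases, TT, 1 base and CC (4.79%), were in none of the 11. Every motif can overlap another, and a match describes letters only.

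Against controls, most of the dendritic cell genes were higher under anti-CTLA-4, whatever the outcome. In responders 8 of 10 members were called higher and 1 lower by edgeR's quasi-likelihood test (adjusted p under 0.05 over all 18031 genes tested), where 65% of all genes tested were called, 36.1% of the tested genes higher and 28.9% lower. In stable tumours 8 were called higher and 0 lower, against 41.8% of all genes called, 22.2% higher and 19.6% lower. In non-responders 6 were called higher and 0 lower, against 13.9% of all genes called, 10.6% higher and 3.29% lower. The median log2 fold change of the members was 1.51 in responders, 1.91 in stable tumours and 1.37 in non-responders, where the median over all genes was 0.16, 0.02 and 0.04. These 3 comparisons share the same 5 control tumours.

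Between the outcome groups fewer members differed, and in both directions. From non-responders to responders, Clec9a rose while Cd209a and Fscn1 fell, so 3 of 10 members were called where 48.9% of all genes were, 25.2% higher and 23.8% lower. Relative to stable tumours, 3 members, Xcr1, Cd209a and Fscn1, were lower in responders and none was higher, against 38.2% of all genes called, 20.5% higher and 17.8% lower. Stable tumours exceeded non-responders in 2 members, Irf8 and Ccl22, against 14.9% of all genes called, 7.08% higher and 7.86% lower. Without the 2 responders in which protein-coding genes took under 60% of counts (responders 1 and 4), responders still had 1 member called higher and 2 lower than non-responders, but none differed from stable tumours.

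**Figure D1:**
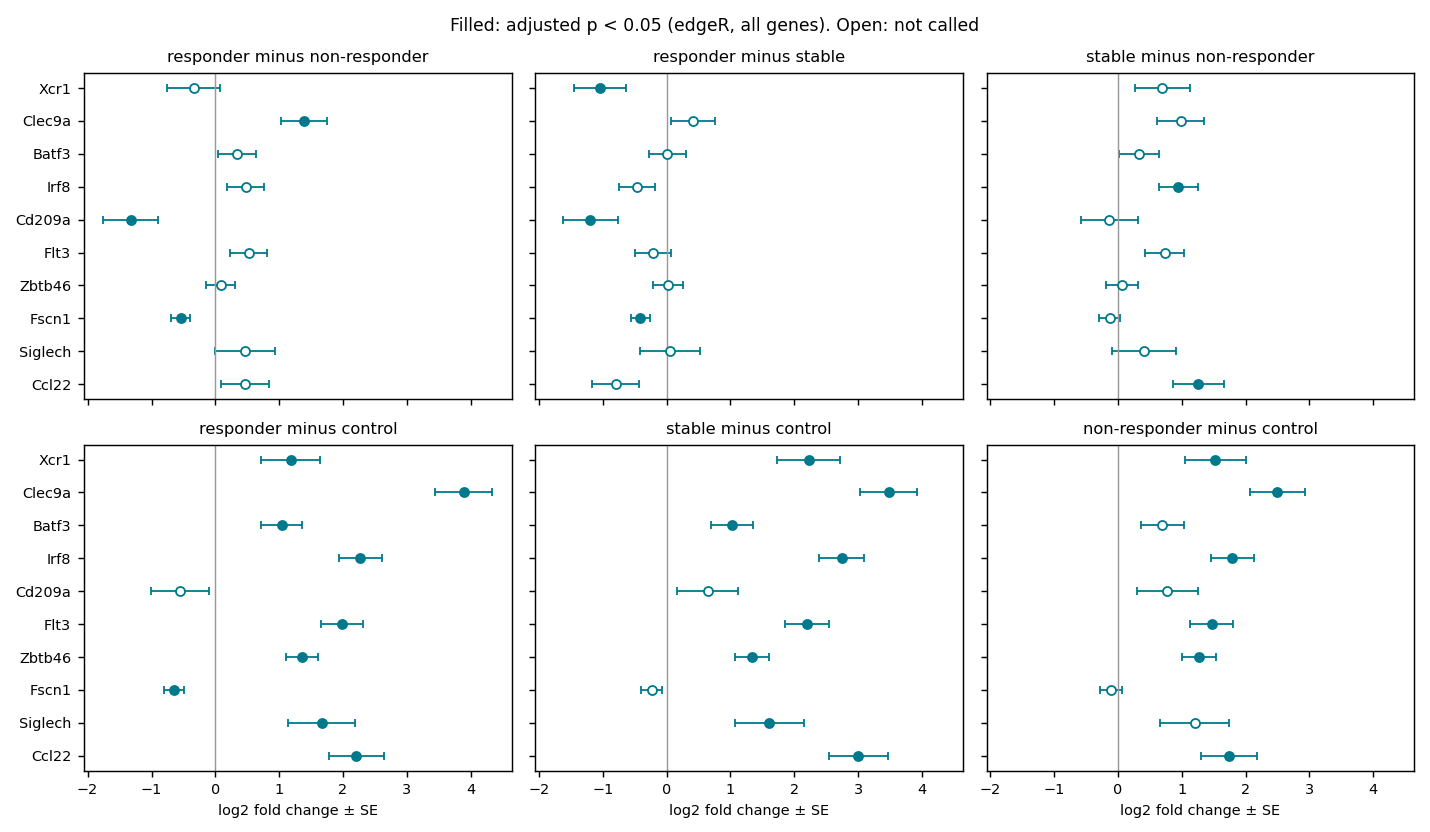
Log2 fold change with its standard error (x axis) of the 10 members (y axis) in the 6 comparisons, from one edgeR fit over 25 tumours; filled points passed an adjusted p of 0.05. Most points lie right of 0 in the 3 lower panels, where 8, 8 and 6 members were called higher, while the 3 upper panels hold points on both sides.

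Xcr1, the receptor through which cDC1 follow the chemokine XCL1, lies on chromosome 9 of GRCm38 (ENSMUSG00000060509.4, 123852315 to 123862029, minus strand). In controls it measured 0.833, 0.700, 1.21, 1.04 and 2.59 CPM. Non-responders ranged from 1.42 to 6.15 CPM with a median of 3.64, and stable tumours from 4.44 to 10.6 CPM with a median of 5.22. All 6 stable tumours thus exceeded every control. Responders ranged from 0.698 to 5.84 CPM with a median of 2.88, and split widely: responders 1, 2 and 4, at 0.893, 1.25 and 2.51 CPM, lay within the control range and responder 3, at 0.698 CPM, just below it. The log2 fold change over controls was 2.22 in stable tumours (SE 0.49, adjusted p = 0.00074), 1.52 in non-responders (SE 0.48, adjusted p = 0.0347) and 1.18 in responders (SE 0.46, adjusted p = 0.0273). Relative to stable tumours, responders lay 1.04 lower in log2 units (SE 0.41, adjusted p = 0.0475), with 6 of 8 under every stable tumour. That last call was lost when any of 18 of the 25 tumours was left out, with an adjusted p of up to 0.136. The difference of responders from non-responders did not pass the threshold (-0.34, adjusted p = 0.501). The calls over controls were lost without 5 of the 25 tumours in responders and without 7 in non-responders.

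Clec9a, which senses filamentous actin on dead cells and routes their antigen to cross-presentation, lies on chromosome 6 (ENSMUSG00000046080.17, 129408862 to 129424763, plus strand). Its levels in controls were 0.300, 0.626, 0.743, 0.274 and 1.55 CPM. They rose to 1.03 to 6.99 CPM in non-responders (median 4.11), 4.89 to 9.83 CPM in stable tumours (median 7.76) and 6.98 to 14.3 CPM in responders (median 9.88). No responder or stable tumour overlapped a control, and 7 of 8 responders exceeded every non-responder. Clec9a had the highest log2 fold change over controls of the 10 members in each outcome group: 3.89 in responders (SE 0.45, adjusted p = 2.79e-07), 3.48 in stable tumours (SE 0.45, adjusted p = 2.36e-06) and 2.498 in non-responders (SE 0.43, adjusted p = 0.000642). In the edgeR fit it was also the only member called higher in responders than in non-responders, by 1.39 (SE 0.36, adjusted p = 0.00345). That difference was 1.13 with the coding share, which is hardly separable from being a responder, as a covariate (adjusted p = 0.0897). It was 1.201 with log2 of the share (adjusted p = 0.0339) and 0.68 with Ptprc (adjusted p = 0.082). Stable tumours lay between them and differed from neither beyond the threshold (0.98 above non-responders, adjusted p = 0.0773; responders 0.41 above stable, adjusted p = 0.355). DESeq2 did call stable tumours above non-responders (0.99, adjusted p = 0.0407), and limma on log2(RPKM + 1) called responders above stable tumours (0.49, adjusted p = 0.0485).

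The start of Clec9a shares 184 exon bases (129408862 to 129409045) with a retained-intron transcript of Clec1b, the gene next to it on the same strand (chromosome 6, 129397297 to 129409335), which encodes the platelet receptor CLEC-2. All 4 annotated Clec9a transcripts share some of these bases, so counts of the 2 genes could be split there. Clec1b had 0 counts in controls 1, 3 and 5 and at most 0.192 CPM in the other two. It measured 0 to 2.94 CPM in non-responders (median 0.210), 2.59 to 8.40 CPM in stable tumours (median 4.37) and 3.34 to 17.1 CPM in responders (median 6.36). All 8 responders exceeded every non-responder in Clec1b. The part of this neighbour in the Clec9a result was not tested.

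The cDC1 receptors parted in most responders. The log2 CPM of Xcr1 minus that of Clec9a, a difference not corrected for gene length, was 0.14 to 1.61 in controls (median 0.70). It was -0.31 to 0.42 in non-responders (median -0.08) and -0.95 to 0.11 in stable tumours (median -0.42). In responders it was -3.86 to -0.36 (median -1.75), with every responder below every non-responder and every control. The upper end of the responders overlapped the stable tumours and lay just under the lowest non-responder. The highest responder was responder 5, whose protein-coding share was like that of the other groups (log2 CPM 2.57 for Xcr1 and 2.93 for Clec9a). Responder 1 had 4 counts of Xcr1 beside 64 of Clec9a, responder 2 had 18 beside 200 and responder 3 had 13 beside 130. Within groups the levels of these receptors correlated weakly over the 25 tumours (Pearson r = 0.42 after each group's mean was subtracted), which is a description of libraries that also differ in depth and composition. This pair was singled out after its values were seen, and the difference was not tested.

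**Figure D2:**
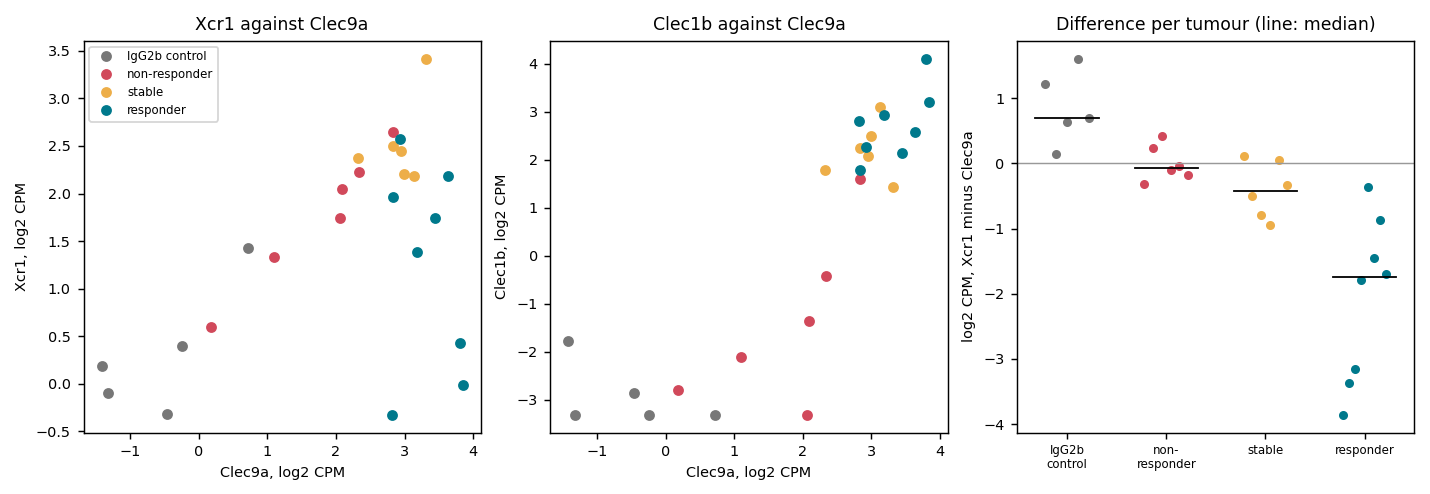
Left and middle, log2 CPM of Xcr1 and of Clec1b (y axes) against Clec9a (x axis), 1 point per tumour coloured by group; right, log2 CPM of Xcr1 minus Clec9a by group, with the median as a line. The points of Xcr1 and Clec9a climb together from controls to stable tumours, while responders have high Clec9a at any Xcr1 level, and the responder differences span -3.86 to -0.36.

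Batf3, the AP-1 family factor needed for cDC1 to develop, lies on chromosome 1 (ENSMUSG00000026630.9, 191097847 to 191108945, plus strand). Controls had 1.63, 2.47, 2.74, 2.14 and 3.62 CPM. Non-responders had 2.11 to 5.50 CPM (median 4.31), stable tumours 2.87 to 7.30 CPM (median 5.44) and responders 2.15 to 8.50 CPM (median 5.20). Each anti-CTLA-4 group overlapped the controls, although 6 of 8 responders exceeded all of them. In log2 units Batf3 was higher than in controls by 1.04 in responders (SE 0.32, adjusted p = 0.0066) and by 1.03 in stable tumours (SE 0.33, adjusted p = 0.0148). It was not beyond the threshold in non-responders (0.70, adjusted p = 0.163). Among the 3 outcome groups no difference passed the threshold, with adjusted p from 0.344 to 0.983. Once the coding share of each library, which is hardly separable from being a responder, entered the model, the call in responders was lost.

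Irf8, the factor that specifies cDC1 and that plasmacytoid cells, monocytes, macrophages and B cells also make, lies on chromosome 8 (ENSMUSG00000041515.10, 120736358 to 120756694, plus strand). Controls had 14.5, 15.9, 17.7, 15.3 and 35.1 CPM, with control 5 apart from the rest. The range was 22.9 to 142 CPM in non-responders (median 68.5), 103 to 184 CPM in stable tumours (median 124) and 70.4 to 124 CPM in responders (median 94.95). Neither responders nor stable tumours overlapped controls. The log2 fold change over controls was 2.74 in stable tumours (SE 0.35, adjusted p = 2.25e-06), 2.27 in responders (SE 0.33, adjusted p = 4.77e-06) and 1.79 in non-responders (SE 0.34, adjusted p = 0.00102). Stable tumours exceeded non-responders by 0.95 (SE 0.31, adjusted p = 0.0398). Leaving out any of 9 tumours, or fitting only those groups, took this call away. Non-responder 6, at 142 CPM, lay above all responders, and without it the responders exceeded non-responders by 0.83, where all tumours gave 0.48 (adjusted p = 0.171). The 3 limma fits on RPKM also called Irf8 higher in responders than in non-responders, by 0.75 to 0.79 (adjusted p from 0.0237 to 0.0331).

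Cd209a, a C-type lectin of cDC2 and monocyte-derived dendritic cells, lies on chromosome 8 (ENSMUSG00000031494.7, 3743397 to 3748984, minus strand), in a family of similar Cd209 genes, so its counts are uncertain where reads match more than one. Controls had 1.37, 3.35, 2.07, 2.11 and 3.47 CPM, non-responders 2.60 to 7.39 CPM (median 3.59) and stable tumours 2.12 to 5.57 CPM (median 3.54). Responders had 0.223 to 3.49 CPM (median 1.23), and 6 of the 8 lay below every non-responder. The lowest were responder 1 with 1 count, responder 2 with 5 counts, responder 4 with 6 counts and responder 3 with 17 counts. Responders were lower than non-responders with a log2 difference of -1.33 (SE 0.43, adjusted p = 0.0139) and lower than stable tumours by -1.19 (SE 0.43, adjusted p = 0.0317). The call against stable tumours was lost without any of 6 tumours. Neither call passed once the coding share of each library entered the model, directly or as log2. That share can hardly be told apart from being a responder. In no anti-CTLA-4 group did the difference from controls pass the threshold (non-responders 0.77, stable tumours 0.64, responders -0.55, adjusted p from 0.286 to 0.300). The value in responders turned to 0.38 with the coding share in the model.

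Flt3, the receptor for the growth factor that dendritic cell precursors and mature subsets depend on, lies on chromosome 5 (ENSMUSG00000042817.15, 147330741 to 147400489, minus strand). Controls had 1.73, 1.88, 1.64, 1.26 and 3.26 CPM. Non-responders had 2.41 to 8.70 CPM (median 4.64), stable tumours 6.56 to 11.6 CPM (median 9.12) and responders 4.62 to 13.4 CPM (median 6.35). Controls lay below every stable tumour and every responder. The log2 fold change over controls was 2.20 in stable tumours (SE 0.34, adjusted p = 1.9e-05), 1.99 in responders (SE 0.33, adjusted p = 2.08e-05) and 1.47 in non-responders (SE 0.34, adjusted p = 0.00463). No difference between the outcome groups passed the threshold, with adjusted p from 0.111 to 0.569. The largest was 0.73 (SE 0.31), of stable tumours over non-responders.

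Zbtb46, a transcription factor of conventional dendritic cells that endothelial cells also make, lies on chromosome 2 (ENSMUSG00000027583.13, 181387762 to 181459426, minus strand). Controls had 5.10, 6.49, 8.06, 6.68 and 8.33 CPM. Non-responders had 8.34 to 26.6 CPM (median 14.6). In no other member did non-responders lie clear of controls, but here the margin was slight. Non-responder 3 had 8.336 CPM and control 5 had 8.329 CPM. The share of all genes without overlap is not given here. Stable tumours had 13.8 to 24.95 CPM (median 16.5) and responders 9.18 to 28.3 CPM (median 17.2). The log2 fold change over controls was alike in the 3 groups. It was 1.36 in responders (SE 0.26, adjusted p = 8.35e-05), 1.34 in stable tumours (SE 0.27, adjusted p = 0.000264) and 1.27 in non-responders (SE 0.27, adjusted p = 0.00219). Differences between the outcome groups were from 0.02 to 0.08 with standard errors of 0.23 to 0.25. Summed levels of 5 endothelial markers were 144 to 203 CPM in controls, 155 to 302 CPM in non-responders, 88.7 to 153 CPM in stable tumours and 51.8 to 131 CPM for responders. Their part in the Zbtb46 levels was not tested.

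Siglech, a surface lectin used to mark mouse plasmacytoid dendritic cells, lies on chromosome 7 (ENSMUSG00000051504.18, 55768178 to 55778925, plus strand) and had the fewest counts of the 10, from 1 to 76 per tumour. Controls had 0.233, 0.811, 0.626, 0.493 and 1.09 CPM. Non-responders had 0.0430 to 3.16 CPM (median 1.26), the lowest being non-responder 3 with 1 count. Stable tumours had 0.933 to 2.97 CPM (median 2.15) and responders 1.12 to 3.52 CPM (median 1.85), all 8 above every control. In log2 units responders exceeded controls by 1.66 (SE 0.53, adjusted p = 0.00817) and stable tumours exceeded them by 1.61 (SE 0.54, adjusted p = 0.0195), while non-responders did not pass (1.203, adjusted p = 0.142). No difference between the outcome groups passed the threshold, with adjusted p from 0.424 to 0.938.

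Of the genes of mature cells, Ccl22, the chemokine that draws CCR4-bearing T cells including regulatory T cells, lies on chromosome 8 (ENSMUSG00000031779.3, 94745590 to 94751699, plus strand). Controls had 2.00, 3.72, 2.66, 3.12 and 10.0 CPM. Non-responders had 4.47 to 30.8 CPM (median 13.1), stable tumours 25.2 to 49.0 CPM (median 32.4) and responders 10.6 to 40.6 CPM (median 16.9). Stable tumours were the highest group, and 7 of 8 responders lay below all of them, the exception being responder 5, whose protein-coding share was like that of the other groups. The log2 fold change of Ccl22 over controls was 3.00 in stable tumours (SE 0.46, adjusted p = 1.52e-05), 2.21 in responders (SE 0.43, adjusted p = 0.000125) and 1.75 in non-responders (SE 0.44, adjusted p = 0.00892). Stable tumours exceeded non-responders by 1.26 (SE 0.40, adjusted p = 0.0361), which did not hold when any of 8 tumours was left out. Responders lay 0.80 below stable tumours with an adjusted p of 0.0868, and without responder 5 that difference passed the threshold at -1.04.

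Fscn1, the actin-bundling protein of mature dendritic cells that many non-immune cells and tumours also make, lies on chromosome 5 (ENSMUSG00000029581.14, 142960343 to 142973185, plus strand). It was the only member called lower than controls, and only in responders. Controls had 57.5, 81.4, 61.0, 86.2 and 79.9 CPM, non-responders 51.9 to 79.3 CPM (median 68.4) and stable tumours 43.6 to 73.7 CPM (median 63.4). Responders had 30.6 to 61.2 CPM (median 46.5), with 7 of 8 below every control. Their log2 difference was -0.65 from controls (SE 0.16, adjusted p = 0.00105), -0.54 from non-responders (SE 0.15, adjusted p = 0.00572) and -0.41 from stable tumours (SE 0.15, adjusted p = 0.0349). None of the 3 passed once the coding share of each library entered the model, a covariate hardly separable from being a responder. With log2 of the share the difference from controls did pass (-0.43, adjusted p = 0.0328). The call against stable tumours was also lost without any of 6 tumours.

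**Figure D3:**
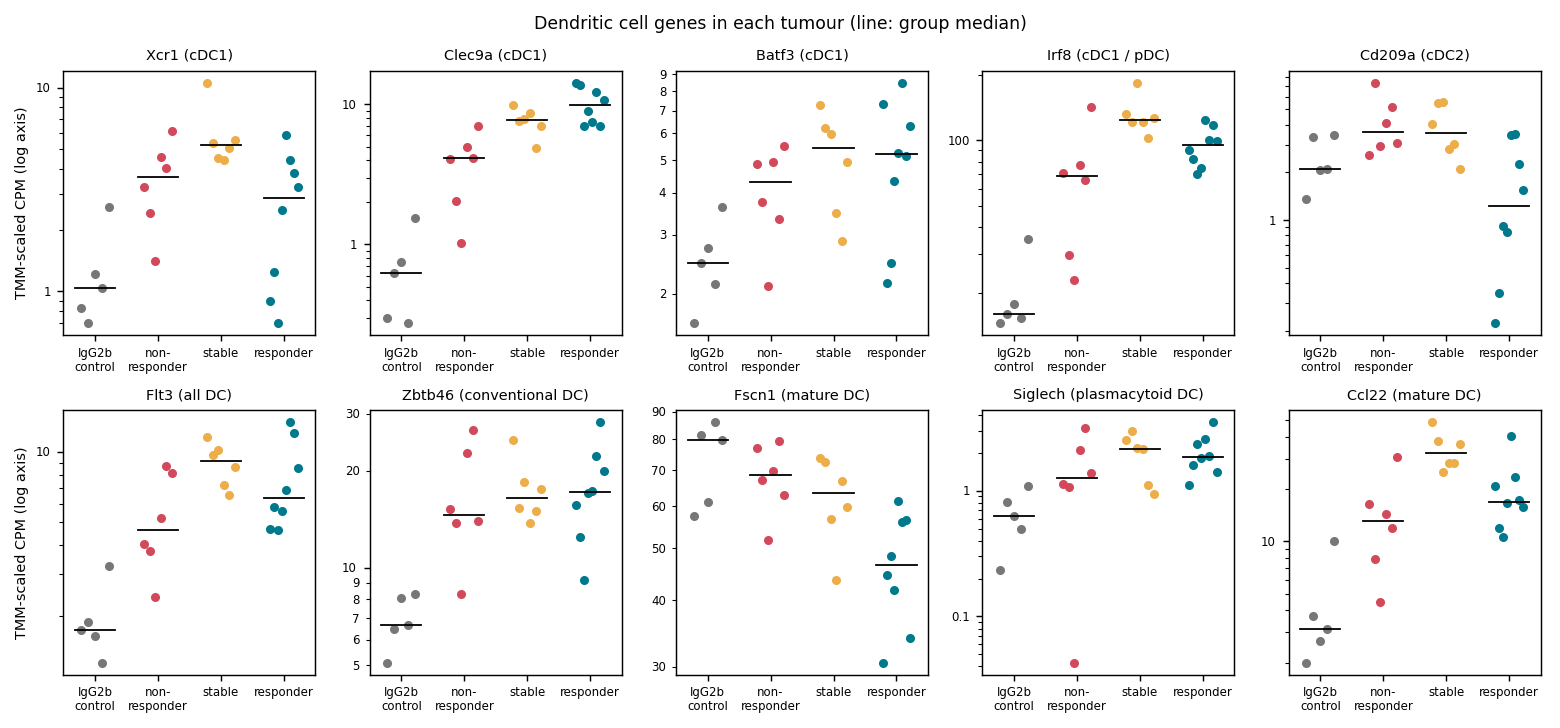
TMM-scaled CPM on a log axis (y) of each member in each of the 25 tumours (points) by group (x), with the group median as a line. Clec9a climbs from 0.274 to 1.55 CPM in controls to 6.98 to 14.3 CPM in responders, Cd209a spreads down to 0.223 CPM in responders, and Ccl22 is highest in stable tumours.

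Levels can be compared between genes only per length, in the authors' deposited reads per kilobase and M reads (RPKM). In controls the order of mean RPKM was Fscn1 (21.4), Irf8 (5.14), Batf3 (2.88), Ccl22 (2.36), Cd209a (1.33), Zbtb46 (1.19), Clec9a (0.431), Flt3 (0.347), Xcr1 (0.298) and Siglech (0.241). In responders it was Irf8 (27.2), Fscn1 (14.3), Ccl22 (11.1), Batf3 (7.38), Clec9a (4.06), Zbtb46 (3.84), Flt3 (1.51), Cd209a (0.994), Xcr1 (0.873) and Siglech (0.765). By mean, Cd209a therefore stood above Clec9a, Flt3 and Zbtb46 in controls and below all 3 in responders. By median, Zbtb46 (1.24 RPKM) lay above Cd209a (1.18 RPKM) in controls. In responders the range of Cd209a (0.118 to 2.40 RPKM) overlapped that of Flt3 (0.862 to 2.71 RPKM). The tumours overlapped between many neighbours in this order, such as Batf3 (1.75 to 4.18 RPKM) and Ccl22 (1.05 to 5.55 RPKM) in controls.

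The leukocyte gene Ptprc, which encodes CD45, rose too, from 46.5 to 97.5 CPM in controls to 84.1 to 445 CPM in non-responders, 390 to 628 CPM in stable tumours and 291 to 533 CPM in responders. Its log2 fold change over controls was 1.85 in non-responders (adjusted p = 0.000596), 2.92 in stable tumours (adjusted p = 8.81e-07) and 2.67 in responders (adjusted p = 4.01e-07). The median log2 CPM of Xcr1 relative to Ptprc stepped down from -5.50 in controls through -5.92 (non-responders) and -6.37 (stable tumours) to -6.89 (responders). For Cd209a the medians were -4.64, -5.81, -6.94 and -7.99 in that order, and every responder and stable tumour lay below every control. Irf8 kept nearly the same distance, with medians of -1.68, -1.85, -1.92 and -2.06. Clec9a went the other way, from -6.65 in controls to -5.86, -5.93 and -5.29. Ccl22 had medians of -4.25, -4.04, -3.74 and -4.48 in the same order. These differences are descriptions without a test. With log2 CPM of Ptprc as a covariate, an alternative chosen after the data were seen, edgeR called 0 members in any comparison with controls. Of 18031 genes tested, that fit called 11 in responders against controls, 0 in stable tumours and 0 in non-responders. Ptprc in responders and in stable tumours did not overlap controls, so this covariate and group cannot be told apart there. Between responders and non-responders that fit called 5812 of all genes. Of the members, 0 were higher and 3 lower in responders: Xcr1 (-1.29, adjusted p = 0.0238), Cd209a (-1.92, adjusted p = 0.0181) and Fscn1 (-0.78, adjusted p = 0.00546). Clec9a was then higher in responders than in stable tumours (0.73, adjusted p = 0.0295).

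**Figure D4:**
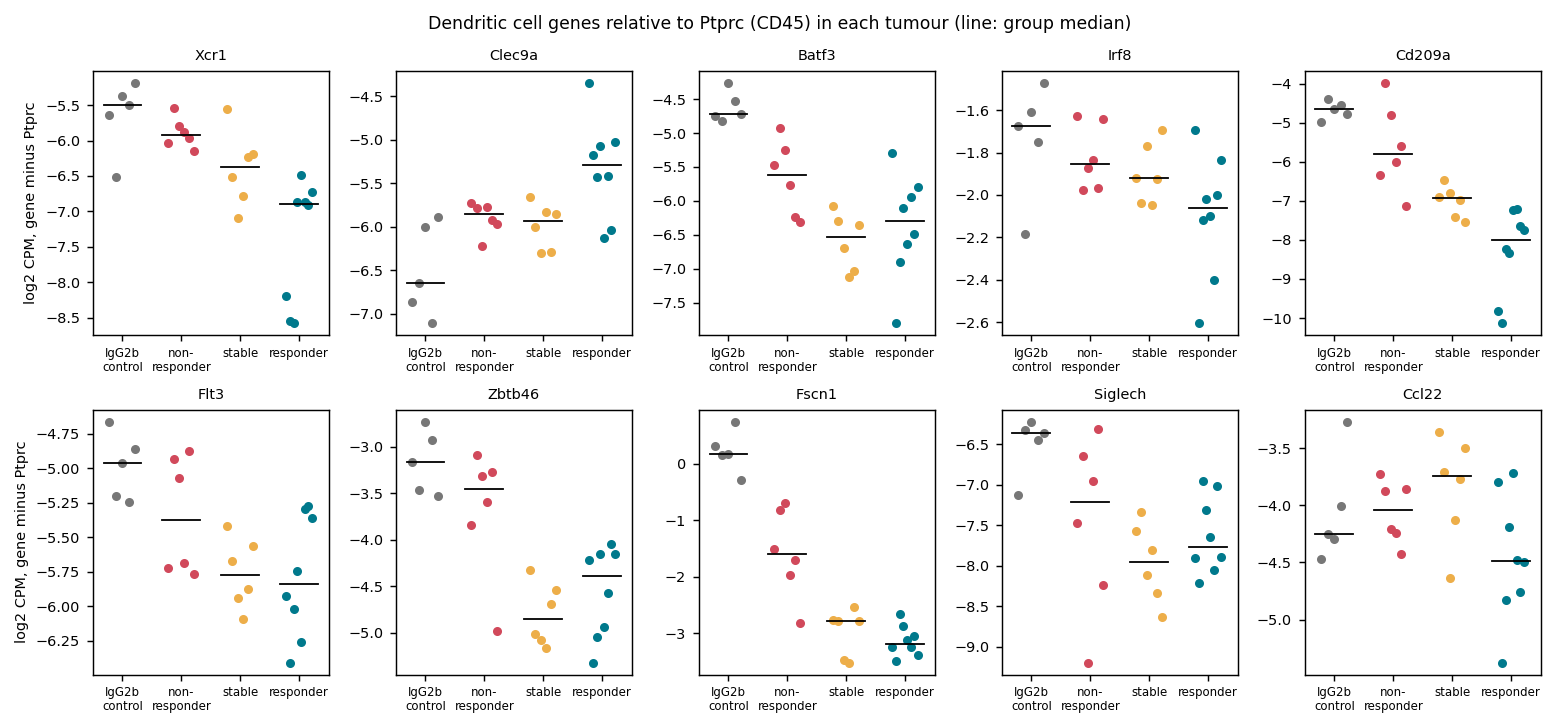
Log2 CPM of each member minus that of Ptprc (y axis) in each of the 25 tumours (points) by group (x axis), with the group median as a line. Cd209a falls from a median of -4.64 in controls to -7.99 in responders, whereas Clec9a is highest relative to Ptprc in responders at -5.29.

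Other genes of the same subsets came from lists chosen by function, and differences given for all these lists are log2 fold changes. Of 12 further cDC1 genes, none was called higher and 3 were lower in responders than in non-responders (median log2 fold change -0.03), where 23.8% of all genes were lower: Snx22 (-1.19), the adhesion protein gene Cadm1 (-1.16) and the RNA sensor gene Tlr3 (-0.84). Cadm1 measured 227 ± 16.8 CPM in controls (SD, n = 5) and 98.6 ± 32.2 CPM in responders (SD, n = 8). In that comparison all 7 melanocyte markers were also lower (median -4.26), and their part in Cadm1 was not tested. Relative to controls 7 of the 12 rose in responders and 2 fell, led by Itgae, the integrin CD103, at 2.44 (adjusted p = 9.71e-06). In stable tumours 9 rose and 2 fell, and in non-responders 6 rose. The shares of all genes in these 3 comparisons were 36.1%, 22.2% and 10.6% higher, and 28.9%, 19.6% and 3.29% lower. Itgae is also made by T cells, whose 7 markers summed to 8.52 to 24.6 CPM in controls and 80.1 to 225 CPM in responders. In stable tumours, Ifi205 rose by 2.47 over controls.

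Of 10 further cDC2 genes 9 were tested. Responders exceeded non-responders in 2, the receptor genes Sirpa (0.53) and Notch2 (0.40), and stable tumours did in 2, Sirpa (0.98) and Klf4 (0.65), where 25.2% and 7.08% of all genes were higher. Against stable tumours, 3 of the 9 were lower in responders, among them the lectins Clec10a (-1.01) and Clec4a2 (-0.93), and 0 were higher. Of all genes, 17.8% were lower and 20.5% higher there. The cDC2 factor Irf4 was called in no comparison, with log2 fold changes from -0.37 to 0.25. All 7 melanocyte markers were lower than controls in responders and in stable tumours, and their part in Irf4 was not tested. Over controls 5 were higher in responders, 8 in stable tumours and 5 in non-responders, where 36.1%, 22.2% and 10.6% of all genes were. Each was led by Ltb (3.15, 3.59 and 2.83), which lymphocytes also make. Macrophage and monocyte markers, 10 in all, summed to 468 to 815 CPM in controls, 1956 to 2988 CPM in stable tumours and 996 to 2694 CPM in responders, and their part in these genes was not tested.

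Among 14 further plasmacytoid genes 13 were tested. In responders 1 was higher than in non-responders, Runx2 (0.70), and 4 were lower, including the interferon-inducible genes Irf7 (-1.17) and Bst2 (-0.78), and Cox6a2 (-0.91). Of all genes, 25.2% were higher and 23.8% lower there. Irf7 measured 80.4 ± 39.8 CPM in non-responders (SD, n = 6), 35.6 ± 9.93 CPM in responders (SD, n = 8) and 38.6 ± 10.5 CPM in controls (SD, n = 5). Compared with controls, 6 were higher in each outcome group, led by the transcription factor gene Spib (2.83 in responders, 3.49 in stable tumours and 2.55 in non-responders) and the chemokine receptor gene Ccr9 (2.64, 2.69 and 2.03), where 36.1%, 22.2% and 10.6% of all genes were higher. The factor gene Tcf4, which plasmacytoid cells need, was lower than in controls in responders (-0.50) and stable tumours (-0.52). Its mean was 290 CPM in controls and 205 CPM in responders, where Siglech had 0.650 and 2.03 CPM. All 7 melanocyte markers were also lower in both comparisons, and their part in Tcf4 was not tested. Spib is also a B cell gene, and 6 B cell markers summed to 4.05 to 9.00 CPM for controls, 6.57 to 44.6 CPM for non-responders, 34.7 to 57.8 CPM for stable tumours and 18.8 to 60.2 CPM for responders.

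Further genes of mature dendritic cells numbered 22, of which 21 were tested. Stable tumours exceeded controls in 21 of 21, responders in 17 and non-responders in 16, where 22.2%, 36.1% and 10.6% of all genes were higher, and none was lower. The highest named in responders and stable tumours was Il12b, the shared subunit of IL-12 and IL-23, at 3.31 and 4.08. Between outcome groups, stable tumours exceeded non-responders in 11, led by the ligand gene Cd274 (1.45), the migration receptor gene Ccr7 (1.36) and the costimulator gene Cd80 (1.10). In responders 8 were higher than in non-responders, led by Cd80 (1.24), Traf1 (1.23) and Il15ra (1.11). All genes tested had 7.08% and 25.2% higher in these comparisons. Against stable tumours 4 were lower in responders, among them Cd83 (-0.99) and Serpinb6b (-0.97), and 0 were higher. There 17.8% of all genes were lower and 20.5% higher. Ccr7 measured 2.48 ± 1.69 CPM in controls (SD, n = 5), 6.00 ± 5.93 CPM in non-responders (SD, n = 6), 15.5 ± 3.12 CPM in stable tumours (SD, n = 6) and 9.79 ± 4.70 CPM in responders (SD, n = 8). Markers of other leukocytes rose as well. In stable tumours against controls, 9 of 10 macrophage and monocyte, 7 of 7 T cell and 6 of 6 B cell markers were higher, and 0 were lower. The part of these cells in the mature genes was not tested.

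Of 8 genes shared by antigen-presenting cells, all 8 were higher in responders than in controls, 7 in stable tumours and 7 in non-responders. The shares of all genes called higher were 36.1%, 22.2% and 10.6%. The integrin gene Itgax, which encodes CD11c, was higher by 3.34 in responders and 3.70 in stable tumours, and it exceeded non-responders by 0.97 in responders and by 1.33 in stable tumours. In stable tumours 6 of the 8 exceeded non-responders, where 7.08% of all genes did. Among them were the MHC class II genes H2-Ab1 (1.39) and H2-Aa (1.27). Spi1, which encodes PU.1, was the 1 gene of these lower in responders than in stable tumours (-0.74), where 17.8% of all genes were.

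In a list of 14 ligands and receptors, some pair with a member and the rest act in dendritic cell growth or T cell recruitment. Compared with controls, 14 of 14 were higher in responders, 14 in stable tumours and 13 in non-responders. The shares of all genes called higher were 36.1%, 22.2% and 10.6%. Xcl1, the ligand of XCR1 made by T and NK cells, was higher by 4.09 in stable tumours, 3.27 in responders and 2.85 in non-responders. Its means were 14.2 ± 5.10 CPM in stable tumours (SD, n = 6), 7.93 ± 6.33 CPM in responders (SD, n = 8), 5.96 ± 6.78 CPM in non-responders (SD, n = 6) and 0.837 ± 0.369 CPM in controls (SD, n = 5). Flt3l, the ligand of FLT3, was the 1 gene of this list higher in responders than in stable tumours (0.57, adjusted p = 0.0464), at 15.3 ± 5.42 CPM (SD, n = 8) against 10.3 ± 2.18 CPM (SD, n = 6). Cxcl9, a chemokine that draws activated T cells, was the 1 lower there (-1.07, adjusted p = 0.0259). In that comparison 20.5% of all genes were higher and 17.8% lower. Csf2ra and Csf2rb, the chains of the GM-CSF receptor, exceeded non-responders in responders by 1.56 and 1.31, and Cxcl16, a ligand for T cells, by 1.23. In stable tumours those highest over non-responders were Ccl5 (1.95), Cxcl16 (1.57) and Itgb2 (1.41).

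Within groups, the genes most like each member were found among 13601 protein-coding genes with a mean of at least 1 CPM, by Pearson's r of log2 CPM over the 25 tumours after each group's mean was subtracted. Xcr1 was most like Btla (r = 0.89), an inhibitory receptor gene of lymphocytes and cDC1, then Tlr1 (0.88) and Arhgef6 (0.87). Clec9a was most like Psd4 (0.89), Txk (0.89) and Sema4a (0.89). Irf8 was most like Tap1 (0.96), the peptide transporter gene of MHC class I loading, then Arhgap30 (0.96) and Adap1 (0.95). Cd209a was most like Abca8a (0.83), Kmo (0.80) and Nrp1 (0.80). Ccl22 was most like Rasgrp1 (0.90), Tspan32 (0.89) and Gfi1 (0.88), and Flt3 like Arhgap15 (0.89), Il4i1 (0.88) and Gimap8 (0.88). Batf3 was most like Map4k1 (0.85), Il9r (0.83) and Icosl (0.82), Zbtb46 like Zfp521 (0.90), Cachd1 (0.88) and Kcp (0.87), Fscn1 like Gdf11 (0.80), Ssbp3 (0.79) and Pth1r (0.73), and Siglech like Camk1d (0.87), Sidt1 (0.86) and Ppfia4 (0.84). Among the members themselves, Irf8 and Ccl22 had r = 0.82, Irf8 and Clec9a 0.78, Xcr1 and Flt3 0.76, and Cd209a and Clec9a -0.06. These libraries share differences in depth, leukocyte content and protein-coding share, Irf8 and Ptprc having r = 0.91, so the values describe likeness only.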

How the data were processed

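RNA of 25 tumours was measured, 1 library each. The authors deposited expected counts (estimated counts per gene, not normalized, 5.64% of values not whole) and RPKM values, without their gene lengths or denominator. The submitters' processing notes name bcl2fastq 2.17, Trimmomatic, STAR 2.5.1, RSEM 1.2.22 and mm10, with no role. All 55450 identifiers matched GENCODE M21 (GRCm38). The labels give a stranded total RNA kit but polyA RNA, which was not resolved. Each library is 1 tumour, implanted from a single line.

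Counts were rounded, filtered with filterByExpr (18031 genes left), TMM-scaled and fitted with edgeR 4.0.16 in R 4.3.3 (robust quasi-likelihood, 4 group means over all tumours), with two-sided tests for 6 comparisons and Benjamini-Hochberg adjustment over all genes tested. CPM are TMM-scaled, and log2 CPM used a prior count of 2. Tested on simulated counts for 18031 genes, the responder against non-responder fit found 76% of the 2-fold and 95% of the 4-fold changes. Only 200 genes were changed, drawn from those with higher mean counts, and no difference in coding share was simulated. The rates therefore need not hold for members with few counts, such as Siglech, or for these libraries. Replicate numbers follow the order of records and pair nothing. Members and lists were chosen with earlier results of these data known. From each list the called genes with a mean of at least 1 CPM and the highest and lowest log2 fold change were named, up to 3 each way against non-responders and 2 otherwise, all members were named, and Irf4, Clec1b and the receptor pair were added after their values were seen. Alternatives used DESeq2 1.42.0, limma 3.58.1 on log2(RPKM + 1) or log2(RPKM + 0.1), other filters, scaling, covariates and left-out tumours.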

Additional observations from a re-analysis of the deposited data

Results flagged for a closer look

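Of 40 sets of values (10 members in 4 groups), 6 held 1 tumour apart from its group. Its gap to the nearest tumour took more of the group's range than the 95% limit for its size allows. For independent sets of normally distributed values chance gives about 1 set in 20. The members share tumours and CPM need not be normally distributed, so the 6 are not read as an excess. Control 5 stood above the other controls in Xcr1 (2.59 CPM against 0.700 to 1.21), Irf8 (35.1 CPM against 14.5 to 17.7) and Ccl22 (10.0 CPM against 2.00 to 3.72). Stable 1 stood apart in Xcr1 at 10.6 CPM, where the other stable tumours had 4.44 to 5.54. Stable 3 stood apart in Irf8 at 184 CPM, where the others had 103 to 132. Responder 5, the responder with the highest protein-coding share, stood apart in Ccl22 at 40.6 CPM, where the others had 10.6 to 23.7.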

How the results depend on the processing

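For counts of called genes, DESeq2, RLE scaling, other filters and limma on RPKM stayed within 1.5 times. With each library's coding share in the model, responders against non-responders had 1810 genes called (916 higher, 894 lower) and responders against stable tumours 0 by edgeR, with 2296 at an unadjusted p under 0.05. Other forms of this covariate, chosen after the data were seen, gave for these comparisons 4627 and 322 with log2 of the share, 536 and 0 with its logit, 1811 and 0 with the share among tested genes, 1805 and 0 with dispersions from group means, 1810 and 0 without robust fitting, and 85 and 0 in fits of only the groups compared. The zeros had 1112, 2304, 2300, 2293 and 1925 genes at an unadjusted p under 0.05. The logit gave 6668 for responders against controls, and fits of only the groups compared 0 for non-responders against controls (3021 unadjusted). Without responders 1 and 4, responders against stable tumours had 4018 (2579 higher, 1439 lower). In a fit of only those groups and no covariate, non-responders against controls had 1559. With Ptprc as a covariate, responders against non-responders had 5812, responders against controls 11, and stable tumours against non-responders, stable tumours against controls and non-responders against controls 0 each, with 1299, 575 and 712 at an unadjusted p under 0.05. The fits without responders 1 and 4 and with Ptprc were chosen after the data were seen, and the cause of these changes was not tested.

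Leaving out 1 tumour gave 1470 to 3804 genes for stable tumours against non-responders and 1570 to 4237 for non-responders against controls. It also changed the sign of uncalled values: Zbtb46 between responders and non-responders (-0.0546 to 0.27), responders and stable tumours (-0.10 to 0.15) and stable tumours and non-responders (-0.0747 to 0.25), Batf3 (-0.13 to 0.14) and Siglech (-0.10 to 0.21) between responders and stable tumours, and Cd209a between stable tumours and non-responders (-0.27 to 0.10). The share as a covariate changed the sign of Xcr1 (0.15) and Zbtb46 (-0.0076) against non-responders, Batf3 (-0.24) and Zbtb46 (-0.0731) against stable tumours and Cd209a against controls (0.38) in responders. In the 6 other forms, in the order above, Xcr1 against non-responders was 0.0608, 0.15, 0.15, 0.15, 0.15 and 0.16, Batf3 against stable tumours -0.18, -0.25, -0.23, -0.24, -0.24 and -0.21, and Cd209a against controls 0.17, 0.51, 0.38, 0.39, 0.38 and 0.27. In the 5 after log2, Zbtb46 was -0.0628, -0.0071, -0.0066, -0.0076 and -0.0142 against non-responders and -0.13, -0.0726, -0.0723, -0.0731 and -0.0128 against stable tumours. With no filter Zbtb46 was -0.0039 between responders and non-responders, and against stable tumours Batf3 was -0.0406 and Zbtb46 -0.0296. Without responders 1 and 4 Batf3 was -0.0613 against stable tumours.

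With Ptprc as a covariate, responders minus non-responders gave Batf3 -0.11, Irf8 -0.25, Flt3 -0.23, Zbtb46 -0.35, Siglech -0.53 and Ccl22 -0.40. Stable tumours minus non-responders gave Xcr1 -0.40, Clec9a -0.0429, Batf3 -0.26, Irf8 -0.0626, Flt3 -0.20, Zbtb46 -0.48 and Siglech -0.94. Against controls, responders gave Xcr1 -1.53, Batf3 -0.27, Irf8 -0.31, Flt3 -0.21, Siglech -1.51 and Ccl22 -0.54. Stable tumours gave Xcr1 -0.64, Batf3 -0.42, Irf8 -0.13, Cd209a -0.71, Flt3 -0.18, Zbtb46 -0.0195 and Siglech -1.92, and non-responders Xcr1 -0.24, Batf3 -0.16, Irf8 -0.0664, Siglech -0.98 and Ccl22 -0.14. All of these were positive without the covariate.

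No paired analysis applied, because each library is a different tumour under 1 antibody and the labels give no pairs. Low depth limits Siglech, Xcr1 and Cd209a, with as few as 1, 4 and 1 counts in a tumour.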
